A study of Homo sapiens with 2 samples.

Results

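Enzymes of glycolysis that act after the phosphorylation of glucose, most of them in the lower part of the pathway, were examined in HepG2 cells in which SAMD4B, an RNA-binding protein related to fly Smaug, can be switched on with doxycycline (Dox). The set was named gene by gene: GPI, ALDOA, TPI1, GAPDH, PGK1, PGAM1, ENO1, ENO2, PKM and LDHA. Of these 10 genes, 9 had transcripts in the table used, out of 11582 genes compared, and LDHA was not analysed here. A gene's value is its TPM, the summed abundance of its annotated transcripts, a measure scaled to one total per library and already divided by transcript length. HepG2 is a human liver cancer line.

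One library came from cells given 1 µg/ml Dox for 48 h and 1 library from cells of the same line without Dox, both with the SAMD4B cassette and both grown in EMEM with 10% serum and non-essential amino acids. The treatment note of the library without Dox repeats the Dox dose and time, and its title, which says that Dox was absent, was followed. With 1 library per group there is no spread between replicates and no test, so each difference is one between these 2 libraries. An effect of Dox itself and an effect of SAMD4B cannot be told apart, because no library of Dox-treated cells lacking the cassette was analysed here, and whether the line is a single clone is not given in the sources used here. In such bulk RNA, a change in the share of cells of a kind and a change in RNA per cell cannot be told apart either. SAMD4B was at 261 TPM with Dox and 47.5 TPM without Dox. All 8 hepatocyte markers averaged at least 1 TPM, with sums of 19683 TPM with Dox and 21629 TPM without Dox. Most of each sum was AFP, at 12140 TPM with Dox and 13406 TPM without Dox. All 8 but APOB (1698 TPM with Dox and 1470 TPM without Dox) were lower with Dox. The sums of the 5 leukocyte markers were 1753 TPM with Dox and 1594 TPM without Dox, nearly all from LYZ (1742 TPM with Dox and 1583 TPM without Dox). Of the others, CD68 was at 11.3 TPM with Dox and 10.7 TPM without Dox, and PTPRC and CD3E were listed at 0 in both libraries. The part that cell make-up plays in the results was not tested. Depths were estimated from the steps of low values, counting only annotated transcripts of 600 nt or more. They came to 23592388 fragments with Dox and 18141339 fragments without Dox, and are not read totals.

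Glycolysis splits glucose into pyruvate in the cytosol. Its preparatory phase, to which the GPI and ALDOA reactions belong, primes the sugar with phosphate and cleaves it into triose phosphates. The later phase oxidises the triose phosphate and ends with the transfer of phosphate to ADP by pyruvate kinase. Lactate dehydrogenase then regenerates the NAD+ that GAPDH consumes. Several steps have tissue isoenzymes: adult liver uses mainly the liver pyruvate kinase PKLR, whereas tumour and proliferating cells rely on PKM. Most of these genes are known targets of the hypoxia-inducible factors and of MYC.

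All 9 measured enzymes were higher in the library with Dox, but 7 of them only by small amounts. The pyruvate kinase gene PKM stood at 748 TPM with Dox and 462 TPM without Dox, and the neuron-type enolase gene ENO2 at 31.8 TPM with Dox and 21.3 TPM without Dox. Differences are given as log2((TPM with Dox + 1)/(TPM without Dox + 1)), so that positive values mean higher with Dox. On this scale PKM was at 0.69, ENO2 at 0.56 and the other 7 between 0.10 and 0.30, with a median of 0.15 over the 9 genes. The median was 0.02 over all genes compared, which are those averaging 1 TPM or more, and -0.01 over the 1324 abundant ones, which average 100 TPM or more. The count of 9 of 9 higher stands beside 53.0% of all genes compared and 46.4% of the abundant ones. A log2 difference of 0.32 or more was reached by 2 of the 9, PKM and ENO2, beside 15.3% of all genes compared and 7.10% of the abundant ones, so that this count is close to the background. PKM alone was 1.5-fold higher or more, beside 5.32% of all genes compared and 2.42% of the abundant ones, and none was 1.5-fold lower or more, beside 3.90%.

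**Figure D1:**
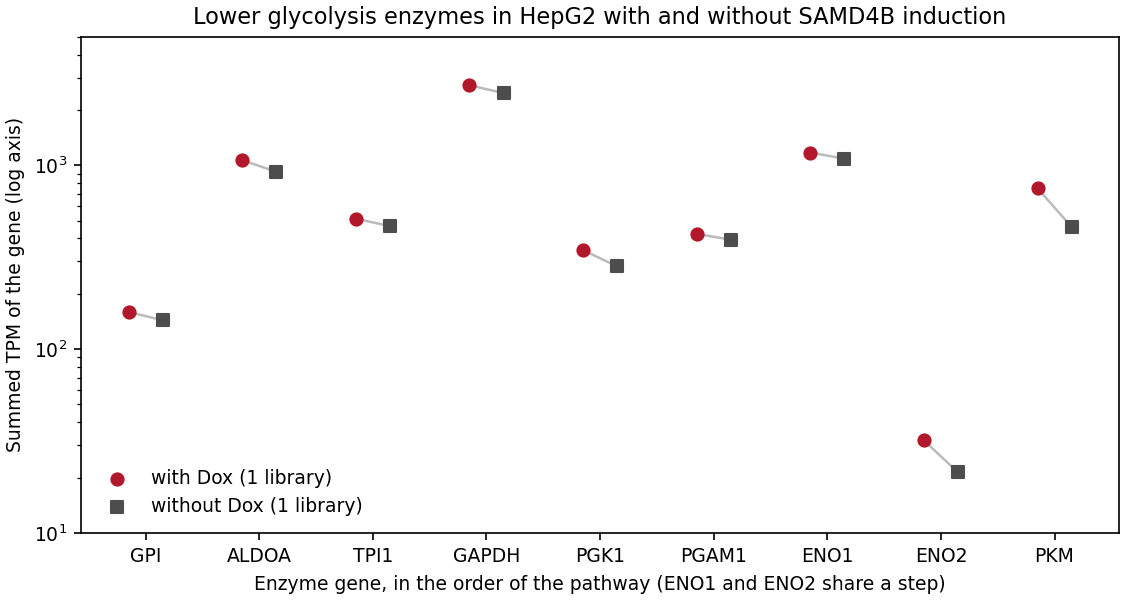
Summed TPM of each enzyme gene (log axis) in the library with Dox (red circles, left) and the library without Dox (grey squares, right), 1 library each, in pathway order. Each red circle lies above its grey square, and the steepest pairs are PKM (748 TPM with Dox and 462 TPM without Dox) and ENO2 (31.8 TPM with Dox and 21.3 TPM without Dox).

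GPI, which isomerises glucose phosphate to fructose phosphate, was at 159 TPM with Dox and 143 TPM without Dox (log2 0.15). ALDOA, the muscle-type aldolase that also prevails in tumour cells, was at 1067 TPM with Dox and 920.0 TPM without Dox (log2 0.21). TPI1, which interconverts the triose phosphates, was at 511 TPM with Dox and 467 TPM without Dox (log2 0.13). These first enzymes therefore differed by 9.55% (TPI1) to 15.9% (ALDOA) in TPM. GAPDH, which oxidises glyceraldehyde phosphate and is often used as a loading control, was at 2723 TPM with Dox and 2469 TPM without Dox (log2 0.14). PGK1, whose reaction yields ATP, was at 346 TPM with Dox and 281 TPM without Dox (log2 0.30). PGAM1, the phosphoglycerate mutase of most tissues, was at 423 TPM with Dox and 394 TPM without Dox (log2 0.10). Among this middle group PGK1 had the widest difference, and PGAM1 the narrowest of all 9 genes. ENO1, the ubiquitous enolase, was at 1172 TPM with Dox and 1085 TPM without Dox (log2 0.11). ENO1 therefore differed by 7.99% in TPM, while ENO2, which catalyses the same reaction, differed by 49.4% at a far lower level.

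The order of levels was the same in both libraries except at a single place. GAPDH was highest, followed by ENO1 and ALDOA, and PGAM1, PGK1, GPI and ENO2 closed the order. PKM stood above TPI1 with Dox, at 748 and 511 TPM. Without Dox PKM and TPI1 were nearly level, with 462 TPM for PKM and 467 TPM for TPI1. Among all genes compared PKM ranked 156 with Dox and 246 without Dox, ENO2 ranked 3945 with Dox and 5195 without Dox, and GAPDH ranked 47 with Dox and 58 without Dox. Summed over the 9 genes, the TPM was 7180.4 with Dox and 6243 without Dox, or 0.718% with Dox and 0.624% without Dox of each library, a sum 15.01% larger with Dox. PKM made up 30.5% of this summed difference and GAPDH 27.1%.

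**Figure D2:**
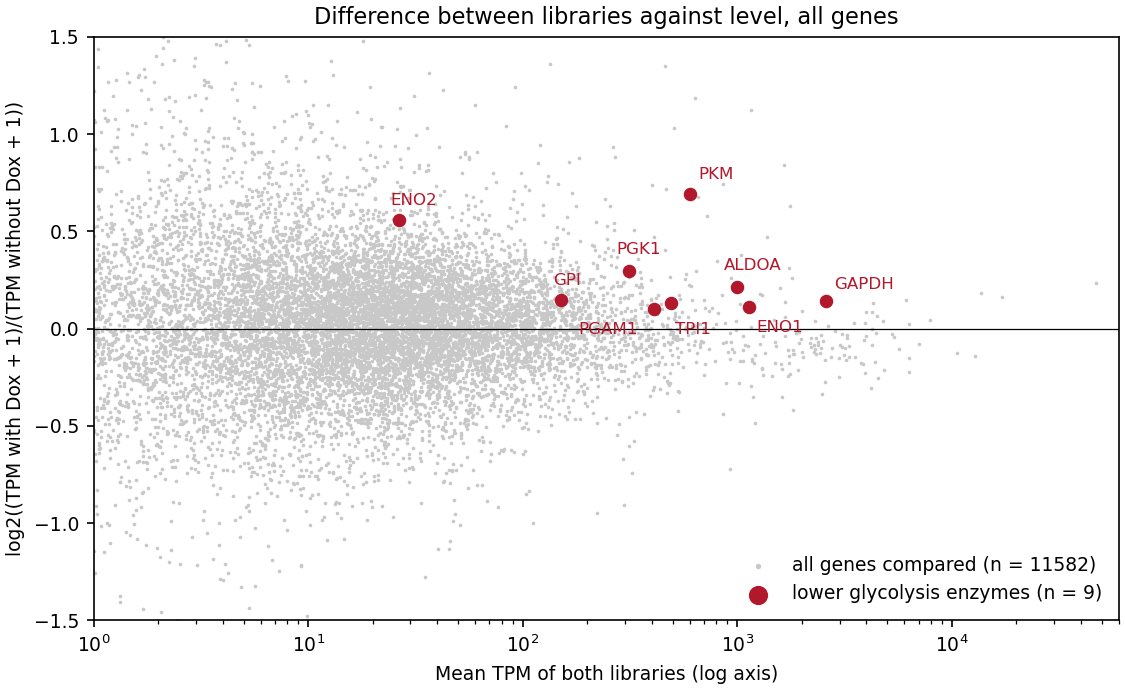
The log2 difference, with Dox over without Dox on the TPM + 1 scale, against the mean TPM of both libraries (log axis) for the 11582 genes compared (grey) and the 9 enzymes (red). The enzymes lie above 0, with PKM at 0.69 and ENO2 at 0.56 above the other 7. Of all genes compared, 428 were at the value of PKM or above and 678 at that of ENO2 or above. A further 134 genes fall outside the range drawn.

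Among the members in the abundant class PKM lay farthest out in the distribution. Of the 1324 abundant genes, 25 had a log2 difference as high as that of PKM or higher, PKM included. The same count was 111 for PGK1, 194 for ALDOA, 283 for GPI, 291 for GAPDH, 310 for TPI1, 354 for ENO1 and 374 for PGAM1. ENO2 lay below that level of abundance, and 678 of all 11582 genes were at its log2 difference or above.

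Counting error was small for all 9 genes. Ratios of estimated fragments are each relative to the estimated depth of the library. They carry 95% intervals from the exact binomial (Clopper-Pearson) method, which take the estimated depths as given and describe counting error alone. For single transcripts, the intervals leave out the uncertainty of assigning fragments among transcripts of one gene. For PKM the ratio with Dox over without Dox was 1.601 (interval 1.57 to 1.63), from 26924 fragments with Dox and 12933 without Dox. For ENO2 it was 1.45 (interval 1.31 to 1.61), from 1095 fragments with Dox and 581 without Dox. ENO2 is thus the least precisely counted of the 9. The other 7 ratios ran from 1.04 for PGAM1 (interval 1.02 to 1.07) and 1.05 for TPI1 (interval 1.01 to 1.08) to 1.12 for PGK1 (interval 1.09 to 1.15). In the same measure the median over 10968 genes with at least 20 estimated fragments in each library was -0.03 on the log2 scale, and 46.0% of them were above 1. With no replicate library, whether the small differences of these 7 genes exceed the spread between cultures could not be assessed.

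PKM (ENSG00000067225, chromosome 15, 72199029 to 72231822, minus strand, GRCh38) carries a pair of mutually exclusive exons that decide which enzyme is made. PKM1, typical of muscle and brain, is constitutively active, and PKM2, typical of proliferating and tumour cells, is regulated by metabolites and growth signals. Both exons are 167 nt long, and 105 of their 167 positions are identical when they are laid side by side without gaps (62.9%). They are shown because every PKM transcript was sorted by which of them it overlaps, in all or in part. They are read 5′ to 3′ on the coding strand from the GENCODE release 29 transcripts, with capitals at the 62 positions where they differ. The PKM1-type exon lies at chr15:72203022-72203188 and the PKM2-type exon at chr15:72202454-72202620.
PKM1-type exon: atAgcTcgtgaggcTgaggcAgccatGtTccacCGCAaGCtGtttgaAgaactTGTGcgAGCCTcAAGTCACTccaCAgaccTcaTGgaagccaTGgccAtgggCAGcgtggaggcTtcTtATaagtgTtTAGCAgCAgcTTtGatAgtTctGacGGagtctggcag
PKM2-type exon: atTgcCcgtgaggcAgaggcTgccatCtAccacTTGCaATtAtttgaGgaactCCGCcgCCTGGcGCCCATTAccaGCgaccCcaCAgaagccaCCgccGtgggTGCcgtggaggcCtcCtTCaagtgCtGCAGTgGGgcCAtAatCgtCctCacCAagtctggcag

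Most of the PKM difference lay in the full-length PKM2 messenger. PKM-202 (ENST00000335181, 2318 nt), the full-length PKM2 transcript, was at 691 TPM with Dox and 414 TPM without Dox, or 92.4% with Dox and 89.6% without Dox of the gene's TPM. Its fragment ratio was 1.62 (interval 1.59 to 1.66). All transcripts that overlap the PKM2-type exon alone summed to 714 TPM with Dox and 443 TPM without Dox, and those that overlap the PKM1-type exon alone to 6.57 TPM with Dox and 3.12 TPM without Dox. Among transcripts typed by either exon alone the PKM2 type therefore held 99.1% with Dox and 99.3% without Dox, and nearly all PKM in both libraries was of the PKM2 type.

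The small PKM1-type fraction was higher with Dox by a larger factor. In estimated fragments it held 0.779% (interval 0.676 to 0.892) with Dox and 0.519% (interval 0.399 to 0.656) without Dox, from 207 fragments with Dox and 66.4 without Dox. Its fragment ratio was 2.41 (interval 1.82 to 3.23), beside 1.59 (interval 1.56 to 1.63) for the PKM2 type. PKM-216 was at 1.66 TPM with Dox and 0.11 TPM without Dox, PKM-220 at 1.71 TPM with Dox and 0.25 TPM without Dox, and PKM-205 at 1.79 TPM with Dox and 1.97 TPM without Dox. PKM-215 (1.07 TPM with Dox and 0.71 TPM without Dox) and PKM-201 (0.33 TPM with Dox and 0.07 TPM without Dox) were also higher. Of the PKM1-type transcripts above 0 only PKM-205 was lower, with a fragment ratio of 0.87 (interval 0.55 to 1.40). Transcripts of one gene share most of their sequence, so values near 1 TPM are uncertain.

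Other PKM transcripts did not all follow PKM-202. PKM-224, a nonsense-mediated decay transcript that ends inside the PKM2-type exon, was at 19.6 TPM with Dox and 26.1 TPM without Dox (fragment ratio 0.73, interval 0.63 to 0.84). PKM-208, a retained-intron transcript, was at 17.2 TPM with Dox and 9.69 TPM without Dox. As a share of the gene's TPM, decay transcripts made up 2.62% with Dox and 5.64% without Dox, and retained-intron transcripts 3.74% with Dox and 3.59% without Dox.

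**Figure D3:**
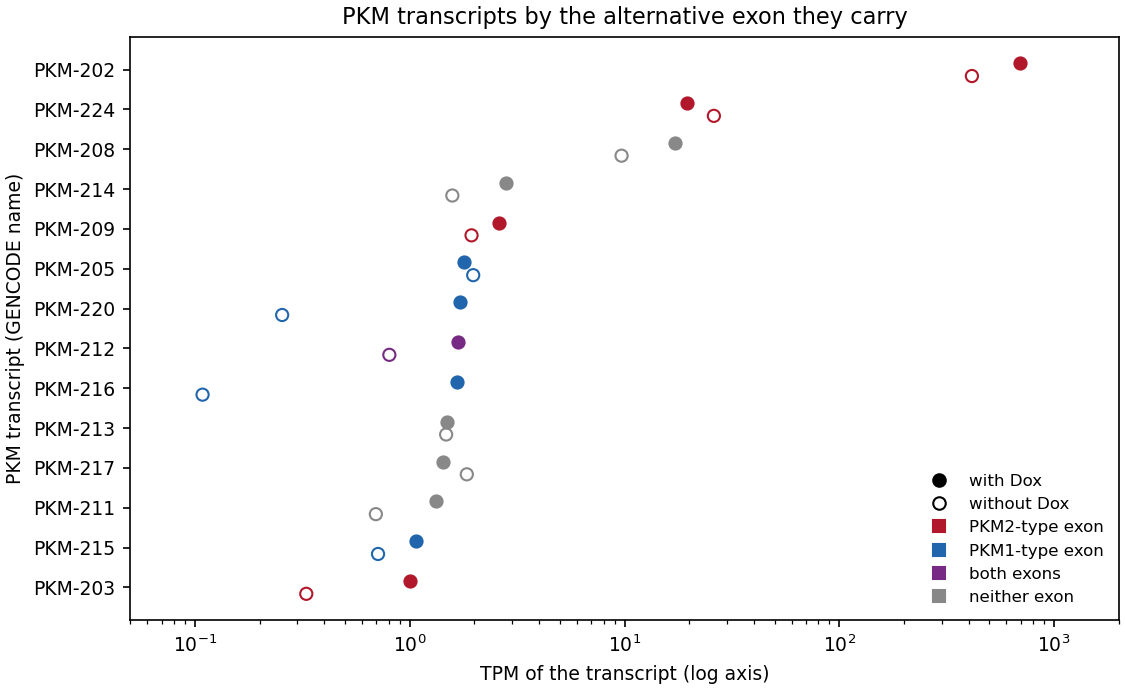
TPM (log axis) of the 14 PKM transcripts with the highest values with Dox, filled circles with Dox and open circles without Dox, coloured by the alternative exon they overlap. PKM-202, of the PKM2 type, lies at 691 TPM with Dox and 414 TPM without Dox, far above the PKM1-type transcripts at or below 1.97 TPM, and PKM-224 runs the other way (19.6 TPM with Dox and 26.1 TPM without Dox).

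Of the splicing factors known to act on these exons, the 7 listed ones were measured. With Dox 2 were higher and 5 lower, beside 53.0% of all genes compared that were higher. The median log2 difference of the 7 was -0.06, beside 0.02 over all genes compared. PTBP1, HNRNPA1 and HNRNPA2B1 repress the PKM1-type exon. HNRNPA2B1 was nearly level, at 493 TPM with Dox and 505 TPM without Dox (log2 -0.03). HNRNPA1 was at 1774 TPM with Dox and 2058 TPM without Dox (log2 -0.21), and SRSF3, which favours the PKM2-type exon, at 368 TPM with Dox and 454 TPM without Dox (log2 -0.30). PTBP2, the neuronal PTBP1 paralogue, was at 4.86 TPM with Dox and 6.52 TPM without Dox (log2 -0.36), with a fragment ratio of 0.90 (interval 0.74 to 1.09). PTBP1 was at 188 TPM with Dox and 177 TPM without Dox (log2 0.09), and NEK2, a mitotic kinase that also binds these repressors, at 20.9 TPM with Dox and 19.4 TPM without Dox (log2 0.10). None of the 7 differed by 1.5-fold, beside 5.32% of all genes compared that were 1.5-fold higher or more and 3.90% that were lower. For 7 genes this count is close to the background.

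ENO2 (ENSG00000111674, chromosome 12, 6913745 to 6923698) differed mainly in its full-length coding transcript. ENO2-201 (2423 nt) was at 23.6 TPM with Dox and 15.04 TPM without Dox, 74.2% with Dox and 70.6% without Dox of the gene, with a fragment ratio of 1.53 (interval 1.37 to 1.71). ENO2-205, which has the same coding exons and a different start, was at 2.67 TPM with Dox and 2.23 TPM without Dox (fragment ratio 1.17, interval 0.88 to 1.56). The retained-intron transcript ENO2-212 was at 2.02 TPM with Dox and 1.93 TPM without Dox, and all retained-intron transcripts together made up 6.97% of the gene with Dox and 12.8% without Dox. The short decay transcript ENO2-204 was at 1.21 TPM with Dox and listed at 0 without Dox. Counting only protein-coding transcripts, ENO2 was at 28.4 TPM with Dox and 18.6 TPM without Dox, 0.59 on the log2 scale, which is past 1.5-fold. As a share of all enolase TPM, ENO2 made up 2.63% with Dox and 1.91% without Dox.

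In the other 7 genes the make-up of transcripts differed by small amounts. In TPM the largest shift of a single transcript's share within any of the 9 genes was 6.23 percentage points, for PGK1-205. In estimated fragments of transcripts of 600 nt or more the shift of PGK1-205 was 1.76 points, with 7.14% with Dox and 5.38% without Dox, and those of GPI-201 (-4.45 points) and ENO2-201 (4.29 points) were wider. None of the 9 reached 10 points in TPM, beside 41.4% of the 10676 genes compared that have several transcripts and 5.88% of the 1258 abundant ones. For GAPDH, PGAM1 and TPI1 a single coding transcript held nearly all of the TPM in both libraries, with the lowest share for TPI1-202 (97.0% with Dox and 97.7% without Dox). GAPDH-201 was at 2701 TPM with Dox and 2435 TPM without Dox, PGAM1-201 at 421 TPM with Dox and 392 TPM without Dox, and TPI1-202 at 496 TPM with Dox and 456 TPM without Dox. The short retained-intron transcript TPI1-204 was at 8.79 TPM with Dox and listed at 0 without Dox. Another short one, TPI1-205, ran the other way, listed at 0 with Dox and at 2.82 TPM without Dox. Both are shorter than 600 nt, so no fragments were estimated for them.

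PGK1 (ENSG00000102144, chromosome X, 77910739 to 78129296) differed by 64.3 TPM, of which 38.0 TPM lay in a short non-coding transcript. PGK1-205, a processed transcript of 702 nt, was at 110.2 TPM with Dox and 72.2 TPM without Dox (fragment ratio 1.49, interval 1.32 to 1.68). The coding PGK1-206 was at 199.7 TPM with Dox and 177 TPM without Dox (fragment ratio 1.10, interval 1.06 to 1.13), and the coding PGK1-201 at 33.7 TPM with Dox and 29.6 TPM without Dox (fragment ratio 1.11, interval 1.05 to 1.17). The annotated start of PGK1-206 lies 193 kb upstream of that of PGK1-201. For the coding transcripts alone PGK1 had a log2 difference of 0.17 in TPM, against 0.30 for the whole gene in TPM and 0.16 for the whole gene in estimated fragments.

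ALDOA (ENSG00000149925, chromosome 16, 30064164 to 30070457) was split between a pair of transcripts with the same coding exons whose starts lie 1.49 kb apart. ALDOA-221 was at 618 TPM with Dox and 537 TPM without Dox, and ALDOA-206 at 364 TPM with Dox and 330.1 TPM without Dox, so both were higher by similar factors (fragment ratio 1.12, interval 1.09 to 1.15, for ALDOA-221 and 1.07, interval 1.04 to 1.11, for ALDOA-206). The short ALDOA-203, of 666 nt, was at 62.9 TPM with Dox and 31.8 TPM without Dox (fragment ratio 1.92, interval 1.61 to 2.31). A gene model on the same strand whose exons overlap those of ALDOA, ENSG00000285043, was at 74.1 TPM with Dox and 65.4 TPM without Dox, and fragments of the overlap cannot be told apart. ENO1 (ENSG00000074800, chromosome 1, 8861000 to 8879250) differed in opposite directions within the gene. Its full-length ENO1-201 was at 1084 TPM with Dox and 956 TPM without Dox (fragment ratio 1.10, interval 1.08 to 1.12). The non-coding ENO1-209, of 605 nt, was at 54.5 TPM with Dox and 91.7 TPM without Dox (fragment ratio 0.58, interval 0.50 to 0.67). Its interval, like those of the other single transcripts, leaves out the uncertainty of assigning fragments among transcripts of one gene. The coding ENO1 transcripts together had a log2 difference of 0.18, against 0.11 for the whole gene.

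GPI (ENSG00000105220, chromosome 19, 34359480 to 34402413) was spread over 3 coding transcripts. GPI-205 was at 61.6 TPM with Dox and 51.8 TPM without Dox, GPI-201 at 53.3 TPM with Dox and 53.1 TPM without Dox, and GPI-208 at 36.6 TPM with Dox and 32.03 TPM without Dox. GPI-201 was therefore nearly level between the libraries (fragment ratio 0.98, interval 0.91 to 1.05). The decay transcript GPI-222 was at 4.75 TPM with Dox and 0.63 TPM without Dox (fragment ratio 7.31, interval 4.36 to 13.1), and made up 2.99% with Dox and 0.44% without Dox of the gene.

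**Figure D4:**
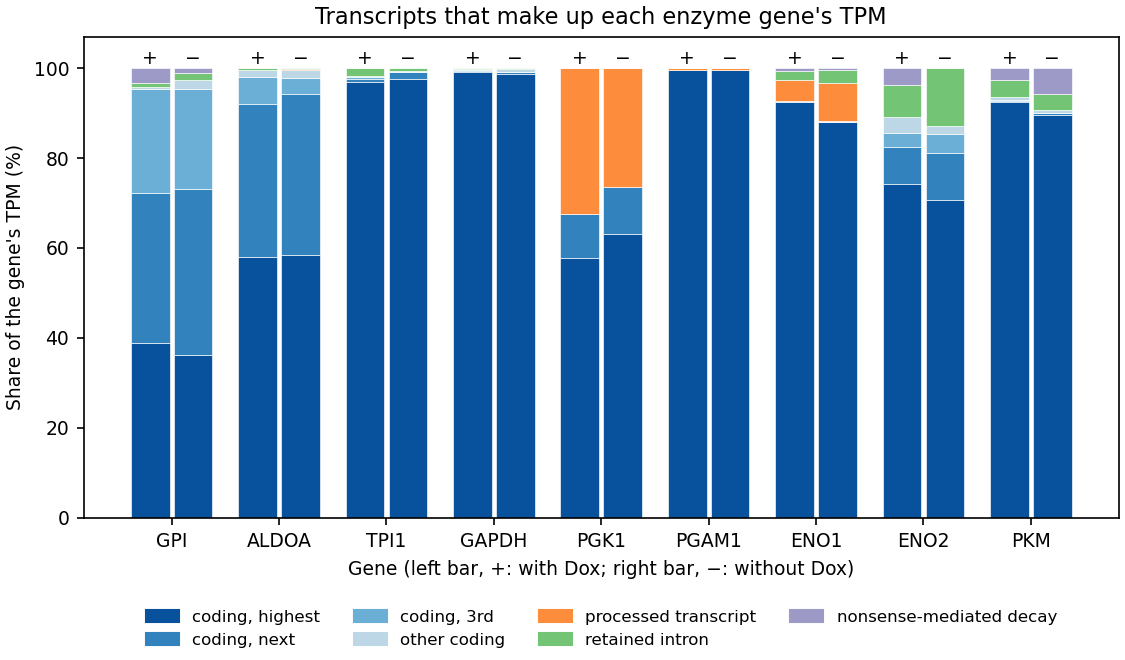
Share of each gene's TPM (%) held by its coding transcripts (blues, highest with Dox first) and by processed, retained-intron and nonsense-mediated decay transcripts, with Dox in the left bar (+) and without Dox in the right bar (−). The processed transcripts of PGK1 make up 32.4% with Dox and 26.5% without Dox, and GAPDH, PGAM1 and TPI1 consist almost wholly of 1 transcript each.

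Tissue isoenzymes of these steps and other related enzymes were at lower levels. Of 16 such genes listed, 6 averaged at least 1 TPM, and 2 of these were higher and 4 lower with Dox, beside 53.0% of all genes compared that were higher. Among these 6 the isoenzymes ALDOC and ENO3 were higher in TPM and PKLR was lower, and the other 3, BPGM, LDHD and PGAM5, catalyse other reactions. The liver pyruvate kinase PKLR was at 2.45 TPM with Dox and 3.99 TPM without Dox (fragment ratio 0.60, interval 0.47 to 0.76), which is 0.33% with Dox and 0.86% without Dox of all pyruvate kinase TPM. ALDOC, the brain-type aldolase, was at 48.9 TPM with Dox and 41.6 TPM without Dox (fragment ratio 1.08, interval 0.99 to 1.17). ENO3, the muscle enolase, was at 8.40 TPM with Dox and 7.68 TPM without Dox. BPGM, which diverts glycolytic intermediates to bisphosphoglycerate, was at 5.59 TPM with Dox and 8.01 TPM without Dox (fragment ratio 0.68, interval 0.55 to 0.86). LDHD, which oxidises D-lactate, was at 2.79 TPM with Dox and 4.03 TPM without Dox. PGAM5, a mitochondrial phosphatase named for its sequence likeness to the mutases, was at 24.9 TPM with Dox and 26.8 TPM without Dox. GAPDHS, PGK2 and PGAM4 were listed at 0 in both libraries.

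Genes of glucose entry and the upper steps had a larger median difference than the lower enzymes. Of 14 measured genes, 10 were higher with Dox and 7 reached 1.5-fold, beside 53.0% and 5.32% of all genes compared; the median log2 difference was 0.46, beside 0.15 for the 9 lower enzymes. The glucose transporter SLC2A3 had a fragment ratio of 2.21 (interval 2.17 to 2.24) and the hexokinase HK1 of 2.11 (interval 1.87 to 2.40). HKDC1, a hexokinase-like enzyme, was at 16.5 TPM with Dox and 8.58 TPM without Dox, and PFKFB3, which makes the activator of phosphofructokinase, at 14.7 TPM with Dox and 7.52 TPM without Dox. Only PKM and ENO2 among the 9 lower enzymes exceeded the median of this list.

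The branches that lead away from the lower enzymes had medians near 0 or below. Of 16 measured genes of pyruvate and lactate fates 7 were higher and 9 lower with Dox, with a median of -0.06. Of all genes compared, 53.0% were higher. PDP1, a phosphatase that activates pyruvate dehydrogenase, was at 7.45 TPM with Dox and 3.51 TPM without Dox, and PDK1, a kinase that inactivates it, at 24.3 TPM with Dox and 17.0 TPM without Dox. PC, which carboxylates pyruvate, was at 20.5 TPM with Dox and 29.1 TPM without Dox, and MPC1, a subunit of the mitochondrial pyruvate carrier, at 77.1 TPM with Dox and 102 TPM without Dox. All 3 measured gluconeogenic genes were lower with Dox in TPM (median -0.22), beside 53.0% of all genes compared that were higher, but FBP1, named here because its measures differ, had a fragment ratio of 1.06 (interval 0.61 to 1.87). The others were the glucose phosphatase G6PC3 at 20.2 TPM with Dox and 27.5 TPM without Dox and the glucose phosphate carrier SLC37A4 at 32.8 TPM with Dox and 38.4 TPM without Dox. Of 15 pentose phosphate and side-branch genes 7 were higher and 8 lower (median -0.07), beside the same 53.0%. The glycogen branching enzyme GBE1 was at 23.0 TPM with Dox and 15.7 TPM without Dox, and the glycogen synthase GYS1 at 21.0 TPM with Dox and 13.8 TPM without Dox, although the fragment ratio of GYS1 was only 1.16 (interval 1.03 to 1.31). GPD1, which links the triose phosphates to glycerol phosphate, was at 21.5 TPM with Dox and 30.6 TPM without Dox, and RPIA of the pentose phosphate pathway at 37.1 TPM with Dox and 51.3 TPM without Dox.

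Of 18 listed targets of the hypoxia-inducible factors outside glycolysis, 15 averaged at least 1 TPM. With Dox 14 of these were higher and 5 reached a log2 difference of 0.32, beside 53.0% and 15.3% of all genes compared. The median of the 15 was 0.30. The lower one, MXI1, had a fragment ratio of 0.85 (interval 0.74 to 0.99). Of the higher ones, P4HA2, ANKRD37 and ANGPTL4 had fragment ratios with intervals that included 1. VEGFA, an angiogenic growth factor, was at 64.6 TPM with Dox and 47.4 TPM without Dox, and DDIT4, an inhibitor of mTOR signalling, at 44.1 TPM with Dox and 33.1 TPM without Dox. BNIP3L, a mitophagy receptor, was at 40.9 TPM with Dox and 30.7 TPM without Dox, and the collagen-modifying PLOD2 at 198 TPM with Dox and 156 TPM without Dox. Among 10 regulators 5 were higher and 5 lower, with a median of 0.00, beside 53.0% of all genes compared that were higher. TXNIP, which restrains glucose uptake and is induced by glucose, was at 5.92 TPM with Dox and 11.0 TPM without Dox (fragment ratio 0.51, interval 0.44 to 0.60). MYC was at 194 TPM with Dox and 162 TPM without Dox (fragment ratio 1.17, interval 1.13 to 1.22). ARNT and MAX, the partners of the hypoxia factors and of MYC, had log2 differences of 0.33 and -0.44 in TPM, with fragment ratios of 1.00 (interval 0.92 to 1.10) and 0.90 (interval 0.79 to 1.03).

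**Figure D5:**
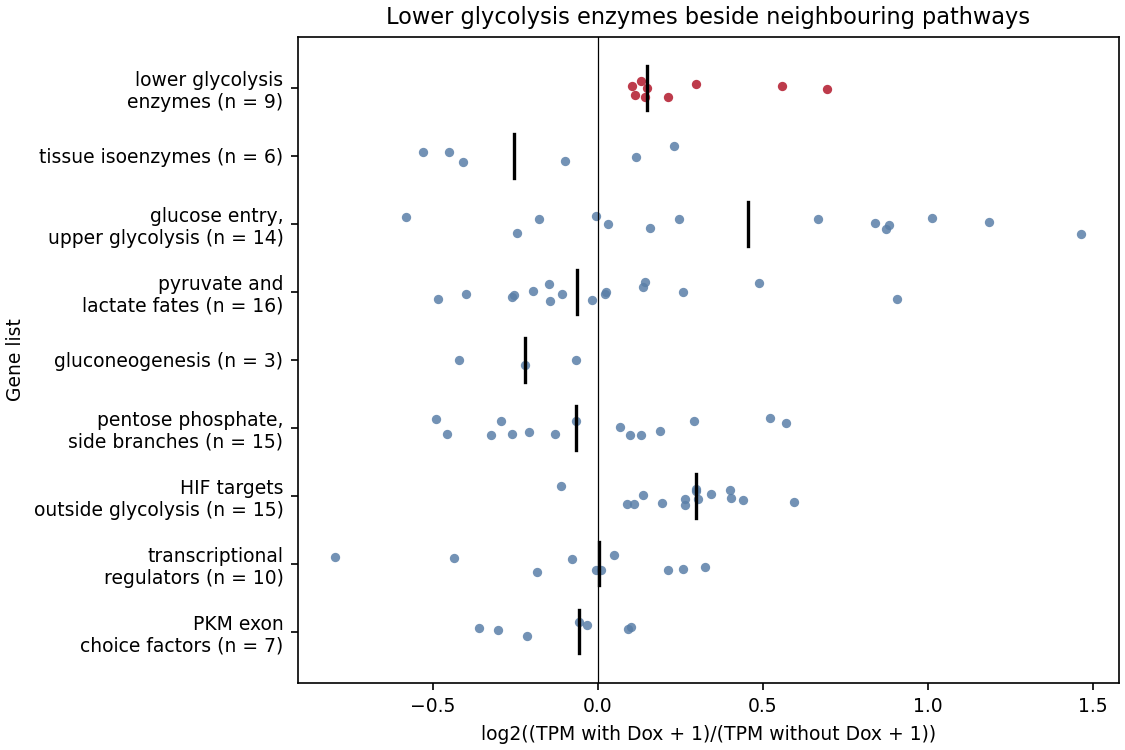
The log2 difference of each measured gene, with Dox over without Dox on the TPM + 1 scale, for the 9 lower glycolysis enzymes (red) and 8 neighbouring lists (blue), with the median of each as a black bar. The lower enzymes lie between 0.10 and 0.69 with a median of 0.15, below the median of 0.46 for glucose entry and upper glycolysis.

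The promoters of the 9 genes were searched for the core of the hypoxia response element, ACGTG or GCGTG, and for the E-box CACGTG, on both strands. Windows of 250 bases before to 50 after the start, from RefSeq on GRCh38.p14, were found for all 9 genes, 12 windows in all because some genes have several starts. The most abundant transcript started inside a window for 5 of the 9 genes. The nearest RefSeq start was 1.34 kb away for GAPDH-201, 0.39 kb for GPI-205, 1.66 kb for PGAM1-201 and 194 kb for PGK1-206, so these windows do not lie at the annotated start of those transcripts. ACGTG was present in 8 of the 12 windows (66.7%), in 6 of the 9 genes, against 21.4% of all 35116 windows and 25.8% of the 13171 windows of protein-coding genes compared. All windows of ALDOA, which has several, are among these 8. The background shares count windows, and no share of genes was computed, so the counts of genes have no background beside them. GCGTG was present in 4 of the 12 windows (33.3%), against 36.5% of all windows and 48.8% of those of the genes compared. Either core was present in 10 windows (83.3%), in 8 of the 9 genes, against 48.4% of all windows and 61.1% of those of the genes compared. CACGTG, which contains ACGTG on both strands, was present in 2 windows (16.7%), those of ALDOA and GAPDH, against 7.26% of all windows and 9.48% of those of the genes compared. PGAM1 had neither core in its window. A match of letters is a description and no evidence of binding.

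The windows of the genes with the widest differences, PKM, ENO2 and PGK1, are shown 5′ to 3′ on the strand of the gene, with the cores ACGTG and GCGTG on either strand in capitals. The PKM window (chr15:72231141-72231440, minus strand) has 1 core, after the start, the ENO2 window (chr12:6914330-6914629, plus strand) 1, and the PGK1 window (chrX:78103998-78104297, plus strand) 4.
PKM: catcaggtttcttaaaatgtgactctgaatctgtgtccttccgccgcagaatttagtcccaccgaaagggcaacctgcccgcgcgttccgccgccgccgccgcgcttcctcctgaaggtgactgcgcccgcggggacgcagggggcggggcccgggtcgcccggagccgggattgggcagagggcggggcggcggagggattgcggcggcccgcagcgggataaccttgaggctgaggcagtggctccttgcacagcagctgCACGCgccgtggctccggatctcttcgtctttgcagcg
ENO2: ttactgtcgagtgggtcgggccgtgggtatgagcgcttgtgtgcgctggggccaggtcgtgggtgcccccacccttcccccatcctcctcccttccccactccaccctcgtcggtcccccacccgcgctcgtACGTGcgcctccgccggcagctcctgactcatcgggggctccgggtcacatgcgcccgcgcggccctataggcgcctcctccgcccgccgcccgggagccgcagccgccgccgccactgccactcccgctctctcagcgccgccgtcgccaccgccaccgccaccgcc
PGK1: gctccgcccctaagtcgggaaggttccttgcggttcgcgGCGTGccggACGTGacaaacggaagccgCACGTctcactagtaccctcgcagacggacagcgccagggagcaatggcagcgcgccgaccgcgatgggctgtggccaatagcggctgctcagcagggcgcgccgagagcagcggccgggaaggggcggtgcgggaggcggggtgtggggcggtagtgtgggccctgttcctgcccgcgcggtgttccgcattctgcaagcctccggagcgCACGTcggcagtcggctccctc

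On the genome, 3 of the 9 genes lie close together on chromosome 12. GAPDH (6533927 to 6538374) is 329 kb from TPI1 (6867119 to 6870948), which is 42.8 kb from ENO2. Their log2 differences were 0.14, 0.13 and 0.56, so the neighbours did not share the size of the ENO2 difference.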

How the data were processed

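Polyadenylated RNA of 2 libraries, 1 with and 1 without Dox, was quantified by the authors with Trimmomatic and Salmon on GRCh38.p13, per the submitters' processing notes; which versions, options and annotation were used is not given in the sources used here. The authors deposited TPM values for 184844 transcripts. Of these, 161798 matched GENCODE release 29 by identifier without version and held 93.3% of the TPM in each library. Symbols were looked up by gene identifier, and where identifiers shared a symbol the most abundant was kept (18 dropped). Gene values are sums over matched transcripts, so fragments on unmatched transcripts of the same gene are missed. Genes averaging 1 TPM or more were compared, with a pseudocount of 1 TPM, which understates differences of low genes. Python 3.11.15, pandas 2.3.3 and scipy 1.17.1 were used.

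TPM keeps no depth, but in genes with a single transcript of 600 nt or more the low values, multiplied by length less 300 nt, fell near whole multiples of one value per library: 80.6% (540 of 670) with Dox and 77.1% (522 of 677) without Dox lay within 0.1 of a whole number below 5.5. The value and the offset were fitted to these same numbers. Estimated fragments, and the depths summed from them, use matched transcripts of at least 600 nt. The procedure was also run on simulated data that had the same 300 nt offset and no fragments shared between transcripts. That run therefore cannot show how exact the depths of these libraries are.

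The members and lists were chosen with earlier results of these data known. Named genes are all members, paralogues averaging 1 TPM or more, up to 4 genes per other list with the widest log2 difference among those averaging 5 TPM or more, and members' transcripts with at least 5% of the gene's TPM. Others were chosen after their values were seen. Examples are the listed genes at 0, PKM-201, PKM-205, PKM-208, PKM-215, PKM-216, PKM-220, ENO2-204, TPI1-204, TPI1-205 and GPI-222. Further examples are PTBP1, HNRNPA2B1, FBP1, MXI1, P4HA2, ANKRD37 and ANGPTL4.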

Additional observations from a re-analysis of the deposited data

How the results depend on the processing

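Under 9 alternative settings (pseudocounts of 0.1 and 5 TPM, mitochondrial transcripts left out, 2 centrings, protein-coding transcripts, transcripts of at least 600 nt, pseudogenes added, estimated fragments) all 9 enzymes stayed higher with Dox, and the median log2 difference ran from 0.13 to 0.17. The centring on genes averaging 100 TPM or more was added after seeing the data. With protein-coding transcripts only, 2 genes instead of 1 were at least 1.5-fold higher, since ENO2 passed at 0.59. The log2 difference ran from 0.67 to 0.74 for PKM, 0.49 to 0.59 for ENO2, 0.16 to 0.31 for PGK1, 0.15 to 0.23 for ALDOA, 0.10 to 0.16 for GAPDH, 0.07 to 0.15 for TPI1, 0.09 to 0.18 for ENO1 and 0.06 to 0.12 for PGAM1. The range for GPI was 0.12 to 0.17. Among coding transcripts only, the share shift of ENO1-201 was 0.02 points instead of 4.39, and that of PGK1-206 -0.14 instead of -5.23. Shifts of a main transcript's share reversed for ALDOA-221 (0.56 points in fragments), TPI1-202 (0.92 in fragments, 0.42 among coding transcripts), PGAM1-201 (0.026 in fragments) and PKM-202 (-0.088 among coding transcripts); the cause was not tested. No paired analysis was possible because each group has 1 library. Leaving out a library was not possible for the same reason. Counting error was wider for the PKM1-type and minor transcripts than for most gene totals. Among the gene totals it was widest for ENO2, whose fragment ratio of 1.45 had an interval (1.31 to 1.61) that spans 1.5.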

Other observations

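Smaug proteins bind hairpins with a CNGG loop, so the most abundant transcript of each gene was searched for a stem of 5 pairs (A-U, G-C or G-U) closing a loop of CNGG and up to 3 further bases. Such a hairpin was present in 3 of the 9 enzyme transcripts (PGAM1-201, ENO1-201 and PKM-202, 1 each) and in 72.5% of the 11112 protein-coding genes compared. The enzyme transcripts were shorter, with a median of 1830 nt against 2519 nt, and richer in G and C, with a median of 55.9% against 48.7%. PKM-202 has 1 hairpin and ENO2-201 none. The search was chosen with the members' values known, folding was not computed, and binding was not measured.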
